A study of Homo sapiens with 4 samples.

Results

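The genes described here are 41 integrin subunits and focal adhesion plaque genes, out of 18417 genes measured in HuH7 cells after knockdown of the transcriptional coactivators MKL1 and MKL2. They were listed by name, with earlier results of these data known, as 13 integrin subunits and 28 plaque genes, and all 41 had a probe that lists a single gene. HuH7 is an established human hepatocellular carcinoma line, kept below passage 10 in medium with 10% serum. All 4 samples were infected with lentivirus and selected with puromycin for 7 days. The 2 control samples carried a control short hairpin RNA (shRNA), and the 2 knockdown samples carried shRNA against MKL1 and MKL2, genes now named MRTFA and MRTFB. Each sample was read on 1 whole-transcript array, and the deposited values are log2 expression values, so a difference of -1 is a halving. The titles call the samples biological replicates without saying whether infections were separate, so p-values measure the spread between these samples alone. The arrays average a whole culture, and fewer cells with a transcript cannot be told apart from less of it in each cell.

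Integrins are receptors of 1 alpha and 1 beta chain that hold the extracellular matrix outside the cell and, through a plaque of adaptor proteins, the actin cytoskeleton inside it. Talins and kindlins bind the beta tail and switch the receptor on, the complex of ILK, PINCH and parvin and the protein vinculin tie it to actin, and focal adhesion kinase with its scaffolds passes signals on. MRTFA and MRTFB are held by monomeric actin, and when released they activate genes through serum response factor (SRF), which binds the CArG box, so several plaque genes are textbook targets of the pathway. The series was set up to find genes that need MKL1 and MKL2, and the question here is where adhesion genes stand among them.

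Medians of the arrays lay between 5.68 and 5.73, and the lower and upper quartiles near 4.0 and 7.5. No background level stands behind a value. The probe that lists MRTFA, which lists a second gene as well, read 7.77 and 7.80 in the control arrays and 6.81 and 6.91 in the knockdown arrays, a fall by 0.93 (SE 0.096, limma adjusted p = 0.0404). That call was lost when control replicate 1 or control replicate 2 was left out, and kept when a knockdown array was. The difference itself stayed between -0.98 and -0.88 in these fits, each of which has 1 array in a group. MRTFB lay at -0.23 (SE 0.12, limma adjusted p = 0.448) and SRF at -0.44 (SE 0.113, adjusted p = 0.188). All 14 measured of 16 hepatocyte markers, albumin and alpha-fetoprotein among them, read above the upper quartile of all probes on every array. Their mean was 11.3 in both controls and 11.25 and 11.23 in the knockdown arrays. None of 10 fibroblast and stellate markers and none of 8 endothelial markers read above that quartile on every array. Of 7 measured leukocyte markers CD68 and LYZ did, and of 5 cholangiocyte markers KRT19, EPCAM and SOX9 did. No marker of any list passed an adjusted p of 0.05 in limma. At an unadjusted p under 0.05, the hepatocyte markers AFP (-0.31) and KRT18 (-0.28) were lower, and PTPRC of the leukocyte list (0.30) and CFTR of the cholangiocyte list (0.31) were higher. The mean of the leukocyte markers was 6.21 and 6.25 in the controls, 6.45 in knockdown replicate 1 and 6.23 in replicate 2. That of the endothelial markers was 5.21 and 5.14 in the controls and 5.41 and 5.17 in the knockdown arrays, and that of the cholangiocyte markers 7.26 and 7.32, then 7.47 and 7.27. The fibroblast markers had means of 5.40 and 5.42, then 5.35 and 5.52. The part of these markers in the results below was not tested.

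Transcripts of the actin-linking plaque genes LPP, ZYX, LIMA1, ILK, VCL and TLN1 read lower in both knockdown arrays, while those of PTK2 and the Ena/VASP genes lay close to their control values. The lowest log2 differences were those of LPP (-0.78), ZYX (-0.77), LIMA1 (-0.71), ITGAV (-0.71), TGFB1I1 (-0.65), ILK (-0.65), VCL (-0.62) and TLN1 (-0.55). The highest were those of the kindlin gene FERMT1 (0.46) and the fibronectin receptor gene ITGA5 (0.43). None of the 41 reached an adjusted p under 0.05 in limma, where 0.174% of all genes did. At an adjusted p under 0.10, 4 were lower (ZYX, ILK, LPP and LIMA1; 9.76%), against 0.424% of all genes. At an unadjusted limma p under 0.05, 14 of the 41 were lower (34.1%), against 8.04% of all genes, and 3 were higher (7.32%), against 6.25% of all genes. The knockdown arrays lay below both controls for 19 genes (46.3%, against 23.0% of all genes) and above both for 8 (19.5%, against 22.5%). A log2 difference of -0.5 or less was seen for 8 (19.5%, against 2.01% of all genes) and one of 0.5 or more for 0 (1.82% of all genes). The median log2 difference was -0.057, against 0.008 over all genes. That median was -0.25 over the 32 members left when the dimmest 40% of all genes were removed, and between -0.12 and -0.068 with 1 array left out.

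**Figure D1:**
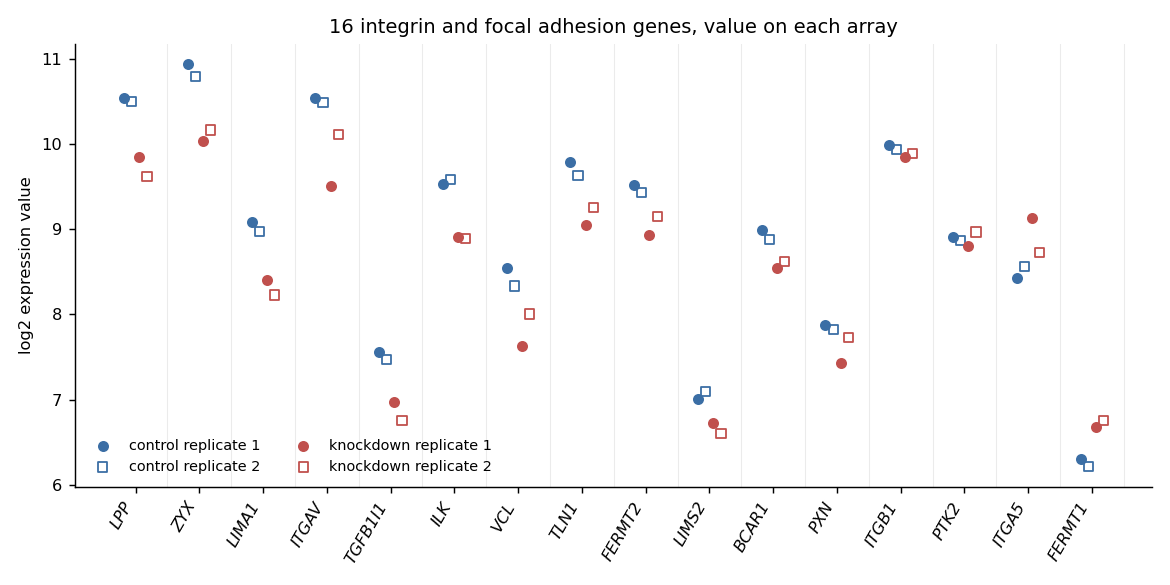
Log2 expression values (vertical axis) of 16 genes on each of the 4 arrays, ordered by log2 difference from left to right. Filled points are replicate 1, open squares replicate 2, blue control and red knockdown. For LPP both knockdown values (9.85 and 9.62) lie under both control values (10.53 and 10.50), and for FERMT1 both lie above, while the groups overlap for PTK2.

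How many genes stood out depended on the arrays used. Without control replicate 1, the lower genes at an unadjusted limma p under 0.05 were 7 in place of 14, and 2.45% of all genes. Those 7 were ZYX, ILK, LPP, LIMA1, TGFB1I1, TLN1 and LIMS2. A fit without 1 knockdown array takes its spread from the 2 controls alone, and one without 1 control from the 2 knockdown arrays. The controls were the closer pair over all genes (SD of the log2 difference 0.154, against 0.265), so such counts do not rest on the same spread. ITGAV lay at -1.01 without knockdown replicate 2 and at -0.41 without knockdown replicate 1. In the same order VCL lay at -0.81 and -0.43, ITGA5 at 0.63 and 0.23, LPP at -0.67 and -0.90 and ILK at -0.64 and -0.66. The median log2 difference of the 41 genes was -0.068 without control replicate 1 and -0.12 without control replicate 2.

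The alpha subunits went both ways. ITGAV, the alpha chain of the vitronectin receptors, read 10.54 and 10.48 in the control arrays, 9.50 in knockdown replicate 1 and 10.11 in replicate 2. Both knockdown values lay below both controls, but the distance from the control mean was -1.01 in replicate 1 and -0.41 in replicate 2. Its log2 difference was -0.71 (SE 0.196), 0.612 of the control level (limma adjusted p = 0.212). ITGA5, which pairs with ITGB1 as the fibronectin receptor, read 8.43 and 8.56 in the controls and 9.13 and 8.73 in the knockdown arrays. The groups did not overlap, and knockdown replicate 1 stood further from the controls here too (0.63 against 0.23). The log2 difference of ITGA5 was 0.43 (SE 0.151), 1.35 times control (limma adjusted p = 0.287). ITGA6, a laminin receptor chain, lay at -0.32 (SE 0.107) with both knockdown values below both controls. ITGA2, a collagen receptor chain, lay at -0.25 (SE 0.147). Its groups overlapped, since knockdown replicate 1 stood at -0.06 from the control mean where replicate 2 stood at -0.44. The laminin receptor chains ITGA3 and ITGA7 and the tenascin receptor chain ITGA9 had means over 4 arrays from 5.12 to 5.50, below the median probe, and log2 differences from 0.10 to 0.11.

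Among the beta subunits, the common partner ITGB1 lay near its control level. ITGB1, the beta chain shared by most matrix receptors, read 9.99 and 9.93 in the controls and 9.84 and 9.88 in the knockdown arrays. The 4 values lay close together, and the log2 difference was -0.10 with a 95% interval from -0.32 to 0.13 (limma adjusted p = 0.712). ITGB5, a partner of ITGAV in vitronectin binding, read 9.42 and 9.41 in the controls and 9.16 and 9.15 in the knockdown arrays. Its replicates agreed closely in both groups, at a difference of -0.26 (SE 0.092, adjusted p = 0.291 in limma). ITGB8, a partner of ITGAV that activates latent TGF-beta, lay the other way at 0.34 (SE 0.11), from a control mean of 5.11, where no background level is known. ITGB3, ITGB4 and ITGB6, the beta chains of platelets and of epithelia, had log2 differences from -0.04 to 0.08 at means from 4.58 to 5.67. In all, 3 of the 13 integrin subunits were lower and 2 higher at an unadjusted p under 0.05 (23.1% and 15.4%, against 8.04% and 6.25% of all genes).

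Talins and kindlins, which activate integrins from the inside, did not read alike within each family. TLN1, the widely expressed talin, read 9.78 and 9.63 in the control arrays and 9.05 and 9.25 in the knockdown arrays, with no overlap. Its log2 difference was -0.55 (SE 0.117), 0.682 of control (limma adjusted p = 0.146). TLN2, its paralog, lay at 0.02 from a control mean of 5.88, close to the median probe. Its 95% interval ran from -0.31 to 0.36, overlapping that of TLN1 (-0.84 to -0.27), and its knockdown spread covers the controls. FERMT2, kindlin-2 of mesenchymal and many other cells, read 9.52 and 9.43 in the controls and 8.93 and 9.14 in the knockdown arrays. Both knockdown values were lower, with a difference of -0.43 (SE 0.113, adjusted p = 0.195 in limma). FERMT1, kindlin-1 of epithelia, read 6.30 and 6.22 in the controls and 6.68 and 6.75 in the knockdown arrays. Both values were higher here, at a difference of 0.46 (SE 0.097, adjusted p = 0.146 in limma), so the intervals of FERMT1 (0.22 to 0.70) and FERMT2 (-0.71 to -0.16) lie on opposite sides of 0. The difference between paralogs was itself not tested in either family.

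The complex of ILK, PINCH and parvin, which binds integrin tails to actin, read lower through ILK and both PINCH genes. ILK, the pseudokinase at the centre of the complex, read 9.53 and 9.58 in the controls and 8.91 and 8.89 in the knockdown arrays. The knockdown arrays nearly coincided and lay below both controls. Its log2 difference was -0.65 (SE 0.093), 0.636 of control (limma adjusted p = 0.0838). LIMS2, which encodes PINCH-2, read 7.00 and 7.10 in the controls and 6.73 and 6.61 in the knockdown arrays. The groups did not overlap, and the log2 difference was -0.39 (SE 0.102, limma adjusted p = 0.2). LIMS1, which encodes PINCH-1, lay at -0.29 (SE 0.104). A further 2 probes list LIMS1 together with other genes and were not used. PARVA lay at -0.22 (SE 0.166), all of it from knockdown replicate 1 (-0.45, against 0.01 in replicate 2), and PARVB at 0.03 with the arrays on either side of the controls. RSU1, which binds PINCH and is no member of the list, read 10.36 in both controls and 9.52 and 9.65 in the knockdown arrays, which puts its log2 difference at -0.78 (SE 0.099, adjusted p = 0.0688 in limma).

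**Figure D2:**
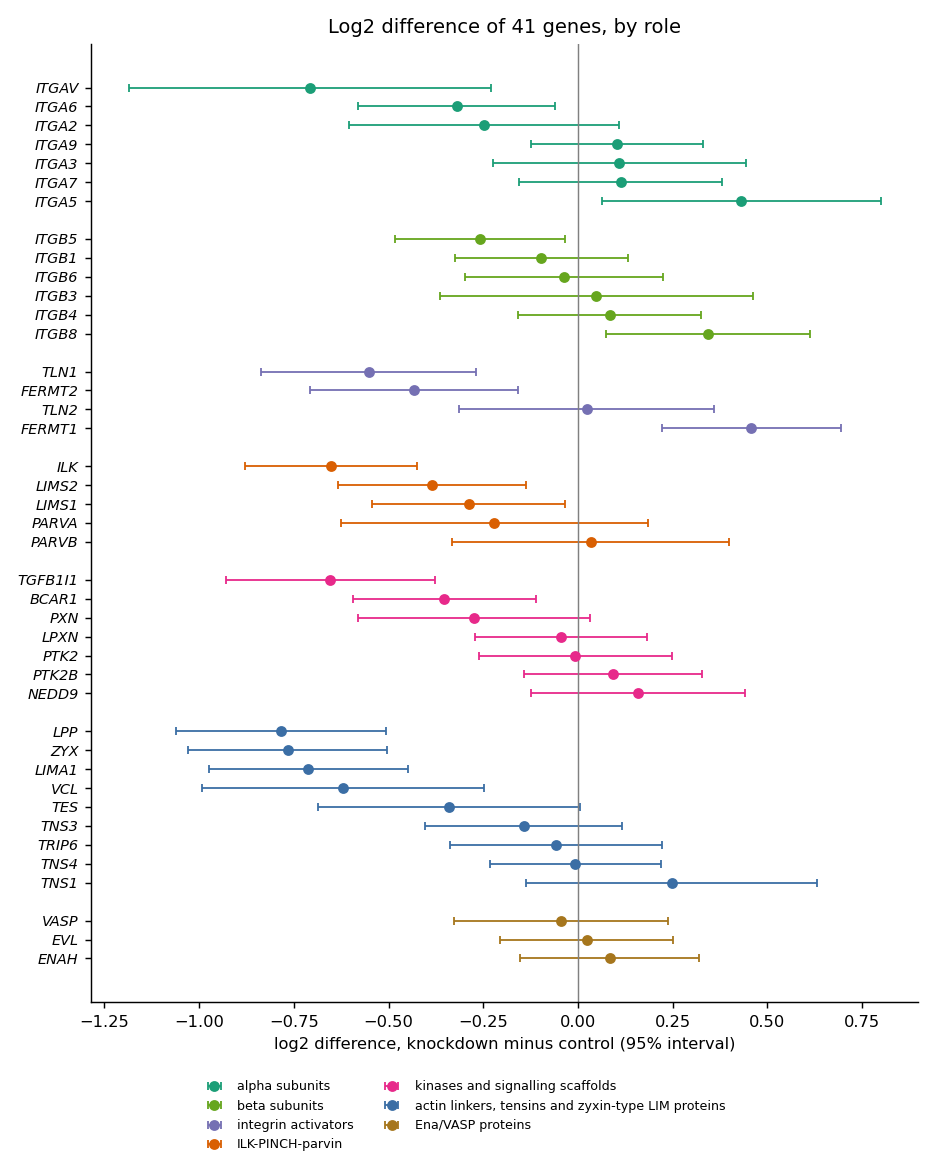
Log2 difference, knockdown minus control (horizontal axis), of each of the 41 genes, with its 95% interval from limma's moderated standard error (2 arrays a group), grouped and coloured by role. Among the actin linkers, tensins and zyxin-type LIM proteins, intervals of LPP, ZYX, LIMA1 and VCL lie below 0 and the others cross 0. Those of FERMT1, ITGA5 and ITGB8 lie above 0, and those of the 3 Ena/VASP genes all cross 0.

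Kinases of the plaque lay near their control values, while the scaffolds BCAR1 and TGFB1I1 read lower. PTK2, focal adhesion kinase, read 8.91 and 8.86 in the controls and 8.80 and 8.97 in the knockdown arrays. The groups overlap, and the log2 difference was -0.007 with a 95% interval from -0.26 to 0.25 (limma adjusted p = 0.986). Its relative PTK2B lay at 0.09 (SE 0.096). BCAR1, a docking protein that focal adhesion kinase and Src phosphorylate, read 8.99 and 8.88 in the controls and 8.55 and 8.62 in the knockdown arrays. It was lower on both arrays, at -0.35 (SE 0.099, limma adjusted p = 0.217), whereas NEDD9 of the same family lay at 0.16 (SE 0.116).

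The 3 paxillin relatives all lay at or below their control means. TGFB1I1, which encodes the LIM protein Hic-5, read 7.56 and 7.48 in the controls and 6.97 and 6.75 in the knockdown arrays. Both knockdown values were lower, replicate 2 more so, at a log2 difference of -0.65 (SE 0.113), 0.636 of control (limma adjusted p = 0.109). PXN, paxillin itself, read 7.88 and 7.83 in the controls, 7.43 in knockdown replicate 1 and 7.73 in replicate 2. Its difference of -0.27 (SE 0.126, limma adjusted p = 0.394) came mostly from replicate 1, and a second PXN probe gave -0.24. LPXN, the leupaxin of blood cells, lay at -0.04 (SE 0.093) from a control mean of 5.61.

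Of the 9 actin linkers, tensins and zyxin-type LIM proteins, 4 had a log2 difference of -0.5 or less (44.4%, against 2.01% of all genes). Members with other roles, ITGAV, TGFB1I1, ILK and TLN1, reached that size too. ZYX, zyxin, which recruits Ena/VASP proteins to stressed filaments, read 10.94 and 10.79 in the control arrays and 10.03 and 10.16 in the knockdown arrays. Knockdown values were lower by a similar distance on both arrays, with a log2 difference of -0.77 (SE 0.108), 0.588 of control (limma adjusted p = 0.0817). LPP, a zyxin relative, read 10.53 and 10.50 in the controls and 9.85 and 9.62 in the knockdown arrays. It had the lowest difference of the 41, at -0.78 (SE 0.113), 0.581 of control (limma adjusted p = 0.0838). LIMA1, the actin-stabilising LIM protein EPLIN, read 9.08 and 8.97 in the controls and 8.40 and 8.23 in the knockdown arrays. That gave a log2 difference of -0.71 (SE 0.108), 0.611 of control (limma adjusted p = 0.0889). VCL, vinculin, which binds talin and actin, read 8.55 and 8.33 in the controls, 7.63 in knockdown replicate 1 and 8.01 in replicate 2. The groups did not overlap, and the log2 difference was -0.62 (SE 0.153, limma adjusted p = 0.183). TES, testin, had a log2 difference of -0.34 (SE 0.142), and its distance from the controls was -0.53 on the first knockdown array and -0.15 on the second. TRIP6, the remaining zyxin relative, lay at -0.06 (SE 0.115) with overlapping groups. The tensins, which bind beta tails and actin, lay at -0.14 for TNS3, -0.007 for TNS4 and 0.25 for TNS1, and none had an unadjusted p under 0.05.

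The Ena/VASP proteins, which lengthen actin filaments and which zyxin recruits, lay close to 0. VASP lay at -0.05 (95% interval -0.33 to 0.24), EVL at 0.02 (-0.20 to 0.25) and ENAH at 0.08 (-0.15 to 0.32). The knockdown and control values overlapped for VASP and EVL.

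**Figure D3:**
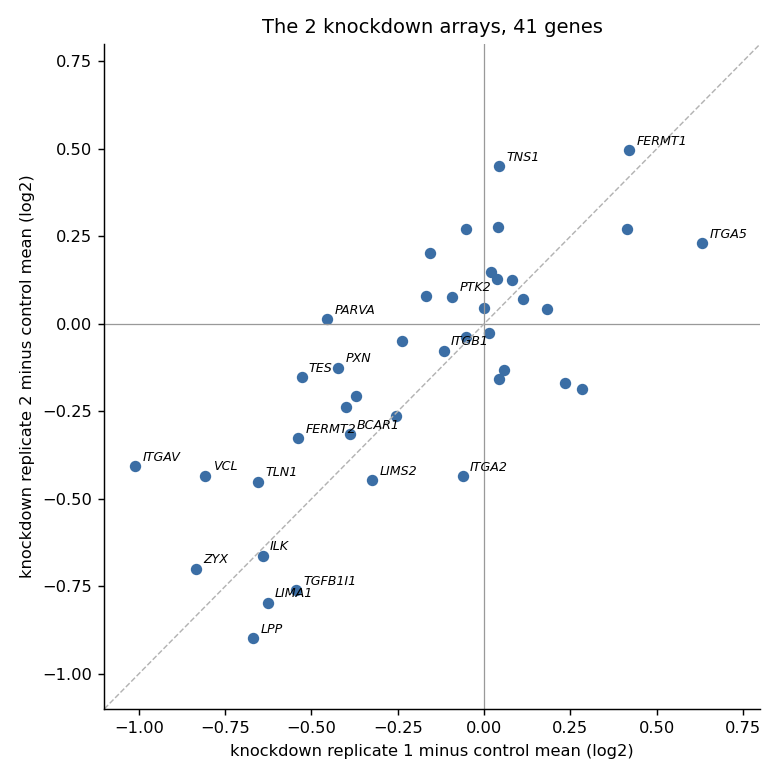
Distance of knockdown replicate 1 (horizontal axis) and of knockdown replicate 2 (vertical axis) from the control mean, in log2 units, for each of the 41 genes; the dashed line marks equal distances. ITGAV and VCL lie further from 0 in replicate 1 (-1.01 and -0.81) than in replicate 2 (-0.41 and -0.43), while LPP, LIMA1 and TGFB1I1 lie further from 0 in replicate 2.

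The knockdown arrays differed in which genes were lowest. Both lay below the control mean for 20 of the 41 genes (48.8%, against 31.9% of all genes) and above it for 10 (24.4%, against 33.1%), and they lay on opposite sides for 11 (26.8%, against 35.0%). All 14 lower genes at an unadjusted limma p under 0.05 lay below both controls on both knockdown arrays. Of these, 8 read lower in knockdown replicate 1 than in replicate 2, and 6 the other way round. Set against the control mean, the 41 genes had a median of -0.117 on the first knockdown array and -0.125 on the second, and of 0.057 for control replicate 1 minus control replicate 2. Over all genes the SD of the log2 difference was 0.265 between the knockdown arrays and 0.154 between the controls.

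Promoter sequences are shown for the genes with a CArG box, since the knocked-down factors act through SRF. RefSeq promoters of build GRCh38.p14, each 250 bases before to 50 after a transcript start, were found for 31 of the 41 genes, with 68 starts in all. A CArG box was found in 4 of the 68 promoters (5.88%), against 1.29% of all 35116, and in 4 of the 31 genes (12.9%), against 1.6% of all genes in the table. All 35116 promoters belong to 27305 genes, so the 31 genes have more starts each. Shares counted by gene are raised by that, here and with a mismatch allowed. The CArG box is CC, 6 bases that are each A or T, and GG, a pattern that is its own reverse complement, so a search of 1 strand covers both. With 1 mismatch allowed, 19.1% of these genes' promoters and 18.9% of all promoters held it, and counted by gene 32.3% of these genes and 22.3% of all genes did. LPP has 7 starts in the table, TGFB1I1 3 and TES 2, and 1 start of each held the box. In the stretches below, written 5′ to 3′ on the gene's strand, capitals mark the box. LPP's lies at chr3:188212489-188212578 (+), with the box 183 to 174 bases before the start. TGFB1I1's lies at chr16:31473114-31473203 (+), with the box 51 to 42 bases before the start. TES's lies at chr7:116222703-116222760 (+), with the box 242 to 233 bases before the start. ITGB6's lies at chr2:160200283-160200372 (-), with the box 60 to 51 bases before the start.
LPP: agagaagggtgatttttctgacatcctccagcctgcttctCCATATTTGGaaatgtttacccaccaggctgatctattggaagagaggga
TGFB1I1: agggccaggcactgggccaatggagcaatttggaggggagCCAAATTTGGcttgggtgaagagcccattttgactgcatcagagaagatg
TES: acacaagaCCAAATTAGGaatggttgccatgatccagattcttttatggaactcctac
ITGB6: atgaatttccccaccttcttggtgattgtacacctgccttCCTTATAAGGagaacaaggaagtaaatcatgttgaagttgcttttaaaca

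The log2 differences of these genes were -0.78 for LPP, -0.65 for TGFB1I1, -0.34 for TES and -0.04 for ITGB6, whose control mean of 4.60 lay below the median probe. ZYX, ILK, VCL and TLN1 had no exact box in the windows searched, which says only that these letters are not there. ITGA3, ITGA7, ITGA9, ITGB3, ITGB4, PARVA, FERMT1, PTK2, PTK2B and TNS4 were not matched in the table.

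Most of the lower members had a strong probe signal. The members were divided at their median mean level over the 4 arrays, 8.14 on the log2 scale, a division made after their values were seen. Of the 21 at or above it, 11 were lower at an unadjusted limma p under 0.05 (52.4%) and 1 higher (4.76%), with a median difference of -0.29. Of all 3544 genes at or above that level, 11.9% were lower and 6.88% higher at an unadjusted limma p under 0.05, with a median of -0.04. Of the 20 members below it, 3 were lower (15.0%) and 2 higher (10.0%), with a median of 0.04. Of all 14873 genes below it, 7.11% were lower and 6.1% higher, with a median of 0.02. TGFB1I1, VCL and LIMS2 were those 3 members, VCL lying just under the dividing level.

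**Figure D4:**
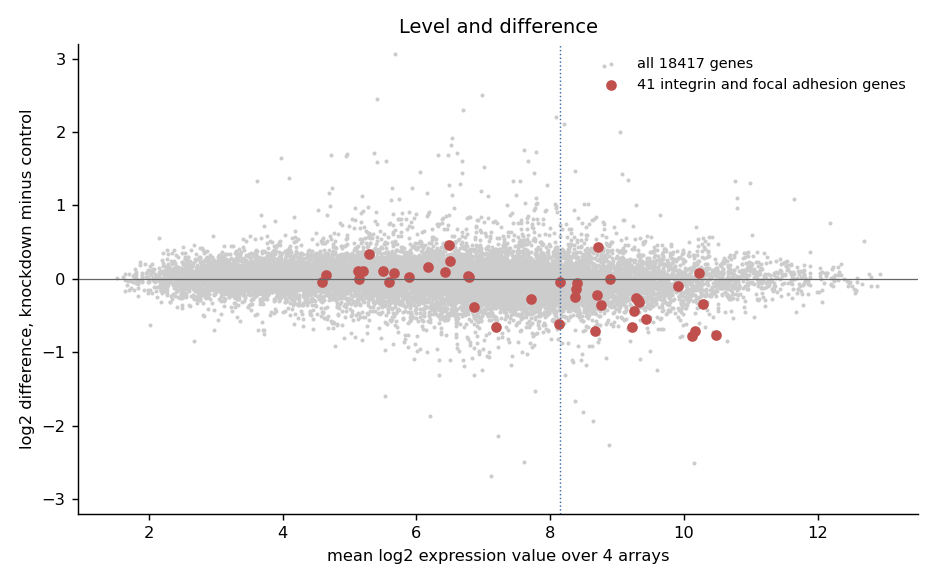
Mean log2 expression value over the 4 arrays (horizontal axis) against the log2 difference, knockdown minus control (vertical axis), for all 18417 genes (grey) and the 41 integrin and focal adhesion genes (red). The dotted line marks the members' median level of 8.14. At or above it 19 of 21 members lie below 0, against 2101 of all 3544 genes. To its left 7 of 20 members do, against 6744 of all 14873 genes.

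Genes around the plaque that are not on the list were counted from related lists. Of 32 measured of 38 listed plaque and integrin-regulator genes, 11 were lower and 3 higher at an unadjusted limma p under 0.05 (34.4% and 9.38%, against 8.04% and 6.25% of all genes), and none passed an adjusted p of 0.05. SVIL, supervillin, which binds actin and myosin II, lay at -1.06 (SE 0.127, limma adjusted p = 0.0563). CSRP1, a LIM protein that binds alpha-actinin and zyxin, lay at -0.72 (SE 0.134, limma adjusted p = 0.124). SORBS2, a vinculin-binding adaptor, lay the other way at 0.65 (SE 0.094, limma adjusted p = 0.0838), from a control mean of 5.13, below the median probe. With RSU1 above, these are the 4 with the smallest p of that list.

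Matrix ligands and the remaining integrin subunits were counted in the same way. Of 26 measured of 28 ligand and basement membrane genes, 6 were lower and 0 higher at an unadjusted limma p under 0.05 (23.1% and 0%, against 8.04% and 6.25% of all genes), and none passed an adjusted p of 0.05. The laminin chain LAMB1 read 10.28 and 10.16 in the controls and 9.73 and 9.75 in the knockdown arrays, which puts its log2 difference at -0.48 (SE 0.098, adjusted p = 0.136 in limma). The basement membrane gene NID2 lay at -0.48 (SE 0.169) and LTBP1, which anchors latent TGF-beta in the matrix, at -0.67 (SE 0.227), both lower in knockdown replicate 1. The matrix gene TNC lay at -0.39 (SE 0.115) from a control mean of 5.14. Of 12 measured of 13 further integrin subunits, most of them leukocyte chains, 0 were lower or higher at an unadjusted limma p under 0.05, and none passed an adjusted p of 0.05; in lists this short a count of 0 is near the share of all genes. ITGAD, ITGB7, ITGAX and ITGB2 had the smallest p of these and log2 differences from -0.12 to 0.13.

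At an unadjusted limma p under 0.05, downstream signalling genes gave no more calls than all genes did. Of 24 measured of 27, FYN was the 1 lower gene at an unadjusted limma p under 0.05 (4.17%, against 8.04% of all genes), none was higher, and none passed an adjusted p of 0.05. FYN, a Src-family kinase that acts at adhesions, read 7.31 and 7.13 in the controls and 6.50 and 6.76 in the knockdown arrays, which puts its log2 difference at -0.59 (SE 0.129, adjusted p = 0.15 in limma). ARHGEF7, RAC1 and GIT2, an exchange factor, a GTPase it acts on and a partner of that factor, lay at -0.22, -0.20 and -0.24, with both knockdown values below both controls for each. Counted without a p-value, both knockdown values lay below both controls for 11 of the 24 genes (45.8%, against 23.0% of all genes). They lay above both for 2 (8.33%, against 22.5%).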

How the data were processed

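Total RNA was labelled with biotin and hybridised to 1-colour arrays. The deposited table holds log2 values for 33297 probes, processed by the authors with Partek, per the submitters' processing notes. For background correction, normalization and genome build, nothing is given in these sources, and the log2 scale was inferred from the range of 1.03 to 13.65. Of the probes, 19460 list 1 gene, 1754 several and 12083 none. Symbols were updated through Entrez identifiers to the RefSeq table (19429 matched), and the probe with the highest mean was kept, giving 18417 genes.

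Groups came from the sample titles. Knockdown minus control differences were fitted over all genes by limma (version 3.58.1, R version 4.3.3; lmFit, eBayes, two-sided, Benjamini-Hochberg over all genes, threshold 0.05). There were 2 residual and 4.12 prior degrees of freedom, and the number of arrays limits the precision. An exact permutation test of 2 against 2 arrays cannot go below p = 0.333. Values on all arrays are given for the 12 members with the smallest p, those with a difference of at least 0.5, and 9 well-known members (ITGB1, ITGA5, ITGAV, VCL, ZYX, TLN1, PXN, PTK2 and ILK). For related lists the rule was any gene past the threshold and the 4 with the smallest p. A few other genes are named with their values as descriptions. The members and lists were chosen with earlier results of these data known. On 5 simulated sets of 18417 genes the procedure called 84.8% of 2-fold and 99.4% of 4-fold changes, with 4.05% of calls false. Only changes of those sizes were planted, and both groups were given the same noise. In the data the SD of the log2 difference was 0.265 between the knockdown arrays and 0.154 between the controls. The largest difference of a member was -0.78, so the simulated shares do not say how often differences of the members' size would be called.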

Additional observations from a re-analysis of the deposited data

How the results depend on the processing

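No setting that kept all 4 arrays and the 0.05 threshold gave a member past an adjusted p of 0.05 in limma. At an adjusted p under 0.10 there were 4 members (ZYX, ILK, LPP and LIMA1) and 144 genes in all. The count of all genes was 32 in the fit reported, 93 with a replicate block and 0 without variance moderation. Without variance moderation 9 members were lower and 1 was higher at an unadjusted p under 0.05 (5.55% and 4.44% of all genes). Leaving out 1 array gave 0 to 8 members and 0 to 781 genes past an adjusted p of 0.05, 7 to 17 members lower (2.45% to 13.0% of all genes) and 1 to 3 higher (2.25% to 11.5%) at an unadjusted p under 0.05, and medians of -0.12 to -0.068. The median of the members was -0.25 without the dimmest 40% of genes (32 members left), -0.076 after quantile normalization and -0.090 after median centring. The MRTFA difference ranged from -0.98 to -0.88 without 1 array, a set of alternatives chosen after seeing the data.

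Same-numbered arrays did not deviate together (r = -0.067 between deviations from the group means, over genes) and share a number alone; with the replicate block 13 members were lower and 3 higher at an unadjusted p under 0.05 (7.03% and 5.73% of all genes), and 12 of the 14 were still among them, without ITGB5 and LIMS1. Some signs turned. After quantile normalization TLN2 lay at -0.0016 and PTK2 at 0.024, and after median centring TLN2 lay at -0.0091 and EVL at -0.0096. Leaving out 1 array turned the sign of EVL (-0.0010 to 0.046), ITGA3 (-0.053 to 0.27), ITGB3 (-0.19 to 0.28), ITGB6 (-0.13 to 0.059), PARVA (-0.45 to 0.013), PARVB (-0.17 to 0.24), PTK2 (-0.092 to 0.078), TLN2 (-0.16 to 0.20), TNS4 (-0.027 to 0.014), TRIP6 (-0.16 to 0.042) and VASP (-0.17 to 0.079). With 1 array in a group, that array is assumed to vary like the other group's. The cause of these shifts was not tested.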

Other observations

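Partners that integrins meet in hemidesmosomes and in the membrane were called about as often as all genes. Of 9 measured of 10 listed genes, 1 was lower and 1 higher at an unadjusted limma p under 0.05 (11.1% each, against 8.04% and 6.25% of all genes), and none passed an adjusted p of 0.05. DST, a plakin that ties hemidesmosomal integrin to keratin, read 7.38 and 7.34 in the controls and 6.99 and 7.07 in the knockdown arrays, which puts its log2 difference at -0.33 (SE 0.095, adjusted p = 0.219 in limma). CD81, a tetraspanin of the hepatocyte surface, read 10.19 and 10.22 in the controls and 10.62 and 10.42 in the knockdown arrays, which puts its log2 difference at 0.31 (SE 0.107, adjusted p = 0.278 in limma). The tetraspanin CD82 lay at 0.29 (SE 0.124) and CD63 at -0.20 (SE 0.095). These 4 had the smallest p of the list, in which log2 differences ran from -0.51 to 0.31.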
